A study of Mus musculus with 8 samples.

Results

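The angiopoietin and Tie genes examined here were 5 rows of the deposited count table, chosen by name: the receptors Tek and Tie1, the receptor phosphatase Ptprb, and the ligands Angpt1 and Angpt2. They were 5 of 16791 genes. The data were single-cell RNA counts from the ventricles of 8 adult mice, aged 8 to 10 weeks in the study's methods and of the strain Pdgfb-iCreERT2-R26R-Brainbow2.1. All 8 mice had received 150 mg/kg tamoxifen 21 days before collection, which switches on a fluorescent reporter (Confetti) in cells with Pdgfb promoter activity. In 4 mice (244, 250, 255 and 256) the left anterior descending coronary artery had been tied permanently 7 days before collection, giving a myocardial infarction (MI). The other 4 mice (227, 228, 239 and 240) were healthy controls without any operation. Effects of the surgery itself therefore cannot be told apart from those of the infarction. The sort kept CD31+ Confetti+ Podoplanin- cells, so mural cells, fibroblasts and blood cells were present only as a minority that passed this gate, and tissue lying outside the reporter was not sampled.

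Angiopoietins are secreted ligands of TIE2, the receptor tyrosine kinase encoded by Tek, which is found mainly on endothelial cells. Angiopoietin-1, made mostly by mural and other mesenchymal cells, activates TIE2 and is known for keeping vessels quiescent and their junctions closed. Angiopoietin-2 is made by endothelial cells themselves, and depending on the setting it blocks or activates the same receptor. It is best known for loosening vessels ahead of sprouting or inflammation. TIE1 is a related receptor that binds no angiopoietin strongly and forms complexes with TIE2. VE-PTP, the product of Ptprb, removes phosphate from TIE2 and from the VE-cadherin complex, and so restrains TIE2 signalling. Signalling below TIE2 runs through PI3-kinase and AKT to the transcription factor FOXO1, and Angpt2 is one of the genes FOXO1 switches on.

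The table held 31028 cells. The 4 healthy libraries had 6764977 to 8793655 UMIs (unique molecular identifiers, each standing for 1 captured transcript), and the 4 MI libraries had 15865234 to 27244947. The healthy libraries were not independent. Healthy 228 and Healthy 239 shared 2041 barcodes, and 2030 of the 3669 cells of Healthy 228 had at least 90% of their UMIs on the same genes in the larger Healthy 239 cell of that barcode. Healthy 227 had 301 such copies of Healthy 228 cells, and Healthy 239 had 2 of Healthy 240. No MI library held any copy. The main comparisons of the members are therefore given with and without the 2333 copied cells, while other marker genes, gene lists and the haematopoietic class are given with all cells.

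Cells were placed in classes by marker UMIs, none of them from the 5 genes examined. Of 28776 endothelial cells, 12773 came from healthy and 16003 from MI mice. After each cell was thinned to 1000 UMIs, 3915 were capillary cells with the capillary marker Car4 and 1845 were sprouting cells with Apln, which encodes apelin. A further 647 were Plvap-high cells (at least 3 UMIs of Plvap, a protein of endothelial diaphragms). Another 46 cells, all from MI mice, met both the Apln and the Plvap limit and were left out of the class comparisons. The 20732 other endothelial cells met none of these limits, but could hold Plvap UMIs below the limit of 3. Only 8 Plvap-high cells came from healthy mice, so comparisons with that class are differences within the 4 MI mice. They came from 1 fit over the classes of all 8 mice, whose shared spread and scaling the healthy libraries also set. The pericyte class, marked by Rgs5, held 449 cells, with at least 20 in 7 of the 8 mice and 15 in Healthy 240. Its identity was mixed: the 10 pericyte markers summed to 10317 to 14919 UMIs per 1000000 UMIs of the class (CPM) in it against 67.6 to 152 CPM in endothelial cells, but the 6 endothelial markers were also present at 2387 to 3478 CPM, against 5523 to 6145 CPM in endothelial cells. The haematopoietic class held 1394 cells, and served as the level outside the vessel wall.

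On the mouse genome (GRCm38, GENCODE M21), Tek lies at chr4:94739289-94874976 on the plus strand and Tie1 at chr4:118471191-118490061 on the minus strand. Ptprb lies at chr10:116275523-116389535 on the plus strand, where Gm47625 and the snoRNA Gm26495 overlap it. Angpt1 lies at chr15:42424723-42676977 on the minus strand, where the antisense gene Gm17473 overlaps it. Angpt2, at chr8:18690263-18741562 on the minus strand, sits within the span of Mcph1 on the plus strand. Mcph1 stood at 5.5 CPM in healthy and 6.0 CPM in MI endothelial cells, and was called in none of the comparisons in which it was tested. The promoter of Tek is shown because it was the one member with a RefSeq promoter window that lay wholly before the GENCODE start of its gene. These are the 250 bases before that start (RefSeq, GRCm38.p6, chr4:94739039-94739288, plus strand), written 5′ to 3′. Capitals mark GGAA or its reverse complement TTCC, the core letters of sites bound by ETS factors, which are known regulators of endothelial genes.
Tek: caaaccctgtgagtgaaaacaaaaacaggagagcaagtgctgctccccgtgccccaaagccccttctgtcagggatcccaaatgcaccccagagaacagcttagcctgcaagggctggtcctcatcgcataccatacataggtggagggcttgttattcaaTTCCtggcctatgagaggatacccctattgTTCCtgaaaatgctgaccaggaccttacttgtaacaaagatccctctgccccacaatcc
The Tek window held 2 matches on both strands together, and 76.8% of 32851 mouse promoter windows of the same length held at least as many. The letters are common (93.4% of windows held at least 1, with a median of 3), and a match is only a description of the sequence.

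**Figure D1:**
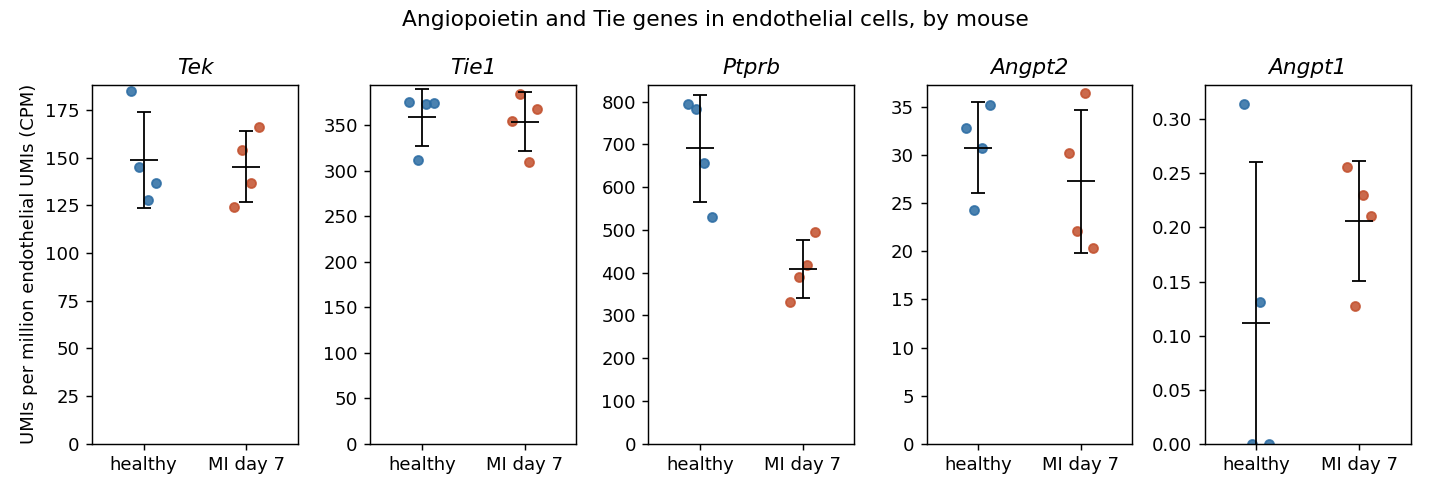
CPM of each member over all endothelial cells of each mouse, on axes that start at 0 (points: mice, horizontal bars: group means, error bars: SD, n = 4 mice per group). The Ptprb points of the 2 groups do not overlap, with healthy mice between 529 and 794 CPM and MI mice between 332 and 495 CPM. The groups overlap for Tek, Tie1 and Angpt2, and Angpt1 lies near 0 in every mouse.

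Over all endothelial cells neither receptor gene was called between healthy and MI mice. Tek stood at 185, 145, 128 and 137 CPM in Healthy 227, 228, 239 and 240 and at 124, 154, 137 and 166 CPM in MI 244, 250, 255 and 256. Both groups cover much the same range, with the single highest value in Healthy 227. Of the 4 members that could be tested in this comparison, 1 (Ptprb) was called, where 38.2% of 12270 genes were. The log2 fold change of Tek was -0.11 ± 0.13 (SE) with a 95% interval of -0.37 to 0.14 (edgeR quasi-likelihood test, Benjamini-Hochberg adjusted p = 0.511), and -0.17 without the copied cells. Tie1 stood at 376, 311, 373 and 374 CPM in the healthy mice and at 355, 384, 309 and 368 CPM in the MI mice. One healthy library, Healthy 228, and one MI library, MI 255, lay lowest, and the groups overlap throughout. Its log2 fold change was -0.10 ± 0.093 with an interval of -0.28 to 0.08 (edgeR adjusted p = 0.418), and -0.15 without copies. Against these, the VEGF receptor Kdr fell (log2 fold change -0.85 ± 0.13, edgeR adjusted p = 0.00112), while Pecam1, which encodes CD31, and Cdh5, which encodes VE-cadherin, were not called (0.12 ± 0.075, adjusted p = 0.230, and -0.16 ± 0.084, adjusted p = 0.166).

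The receptors differed between classes of endothelial cell in every mouse. In capillary cells Tek stood at 178, 159, 124 and 136 CPM in the healthy and at 156, 162, 154 and 161 CPM in the MI mice. In the sprouting class it stood at 86.6, 81.4, 59.9 and 92.7 CPM in the healthy mice and at 106, 118, 126 and 124 CPM in the MI mice. Sprouting cells were thus lower than capillary cells in 8 of 8 mice, with a log2 fold change of -0.66 ± 0.077 as an average of the groups (edgeR with mouse as a block, adjusted p = 1.1e-08). All 4 tested members were called in this comparison, where 29.6% of 10096 genes were. Tie1 behaved the same way, with 387 to 437 CPM in capillary and 212 to 278 CPM in sprouting cells of healthy mice, and 335 to 453 against 267 to 312 CPM in MI mice. It was lower in sprouting cells in 8 of 8 mice (log2 fold change -0.63 ± 0.054, edgeR adjusted p = 6.4e-12). Without copied cells the differences were -0.60 for Tek and -0.60 for Tie1. General endothelial genes also differed between these classes, Cdh5 by -0.34, Pecam1 by -0.12 and Kdr by -0.62 on the log2 scale (all 3 called lower).

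The receptor gap between sprouting and capillary cells was measured in each group. For Tek it was -0.90 ± 0.13 in healthy mice (edgeR adjusted p = 2.5e-06) and -0.42 ± 0.077 in MI mice (adjusted p = 7.7e-05). For Tie1 it was -0.78 ± 0.087 and -0.48 ± 0.062 (edgeR adjusted p = 8e-09 and 2.9e-07). The background for these separate fits was 20.6% of genes called in healthy and 19.8% in MI mice. The test of the change in the gap itself gave 0.48 ± 0.16 for Tek (edgeR adjusted p = 0.0967) and 0.30 ± 0.11 for Tie1 (adjusted p = 0.141), neither called, and 0.38 and 0.25 without copied cells. The value for Tek came to adjusted p = 0.0436 without Healthy 240. Within the sprouting class, Tek levels did not overlap between groups (59.9 to 92.7 CPM in healthy and 106 to 126 CPM in MI mice), yet the test missed the threshold passed by 6.86% of genes (log2 fold change 0.48 ± 0.16, edgeR adjusted p = 0.0761, and 0.258 without copied cells). Without the copied cells the groups overlapped, with Healthy 228 at 111 CPM and MI 244 at 106 CPM. With library size alone as the scaling it passed (adjusted p = 0.0378). Tie1 in sprouting cells gave 0.19 ± 0.12 (edgeR adjusted p = 0.399). Within capillary cells neither receptor was called (Tek 0.02 ± 0.12 with an interval of -0.22 to 0.25, adjusted p = 0.951, and Tie1 -0.08 ± 0.11, adjusted p = 0.654). Nor was either called in other endothelial cells (Tek -0.13 ± 0.14, adjusted p = 0.492, and Tie1 -0.07 ± 0.093, adjusted p = 0.608).

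Plvap-high cells of the MI mice had more of both receptors than sprouting cells. Against capillary cells Tie1 was called lower in the main fit and Tek was not called. Tek stood at 117, 158, 135 and 163 CPM in Plvap-high cells of MI 244, 250, 255 and 256, lower than in the capillary cells of the same heart in 3 of 4 mice (log2 fold change -0.13 ± 0.085, interval -0.30 to 0.03, edgeR adjusted p = 0.300, -0.12 without copies). Tie1 stood at 331, 419, 283 and 384 CPM, lower than capillary cells in 4 of 4 mice (-0.21 ± 0.067, edgeR adjusted p = 0.0157, -0.19 without copies, where 31.6% of genes were called). That call was lost without MI 244 (adjusted p = 0.229) or MI 255 (0.0764), without mouse as a block (0.237) and without the 5% deepest cells (0.0707). Against the sprouting class of the same mice both were higher in 4 of 4 mice, Tek by 0.29 ± 0.082 (edgeR adjusted p = 0.00568) and Tie1 by 0.27 ± 0.065 (adjusted p = 0.0011), where 31.1% of genes were called. The order of mean Tie1 levels in MI mice was capillary (407 CPM), other endothelial (357 CPM), Plvap-high (354 CPM), sprouting (295 CPM), pericyte (157 CPM) and haematopoietic (101 CPM). The ranges over mice of the first 3 overlap, and so do those of Plvap-high and sprouting cells, while sprouting cells and pericytes are set apart and pericytes and haematopoietic cells overlap. For Tek the order was capillary (158 CPM), other endothelial (148 CPM), Plvap-high (143 CPM), sprouting (119 CPM), pericyte (69.5 CPM) and haematopoietic (39.6 CPM), with every neighbouring pair overlapping. In healthy mice the order of Tie1 was capillary (412 CPM), other endothelial (353 CPM), sprouting (243 CPM), pericyte (122 CPM) and haematopoietic cells (41.1 CPM), with no overlap between neighbours. Tek stood at 153 CPM in other endothelial and 149 CPM in capillary cells, which overlap, at 80.1 CPM in sprouting cells and 61.4 CPM in pericytes, which overlap too, and at 27.6 CPM in haematopoietic cells.

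Pericytes carried less of both receptors than endothelial cells. Tek stood at 51.0, 68.5 and 64.6 CPM in the pericytes of Healthy 227, 228 and 239 and at 64.1, 75.5, 21.9 and 117 CPM in those of the MI mice, below the endothelial level in 7 of 7 mice (log2 fold change -1.14 ± 0.15, edgeR adjusted p = 1.4e-06, and -1.16 without copies). Tie1 stood at 108, 133 and 125 CPM and at 105, 199, 153 and 171 CPM, again lower in 7 of 7 mice (-1.32 ± 0.11, edgeR adjusted p = 4.1e-10, and -1.33 without copies). In this comparison 31.6% of 10927 genes were called and 16.8% were lower. The endothelial genes Pecam1, Cdh5 and Kdr were lower by similar amounts (log2 fold changes -1.03, -1.33 and -1.31), and RNA of endothelial cells within the pericyte class was not separated from expression by pericytes. Neither receptor was called between MI and healthy pericytes (Tek 0.15 ± 0.37, edgeR adjusted p = 0.884, and Tie1 0.31 ± 0.22, adjusted p = 0.525).

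**Figure D2:**
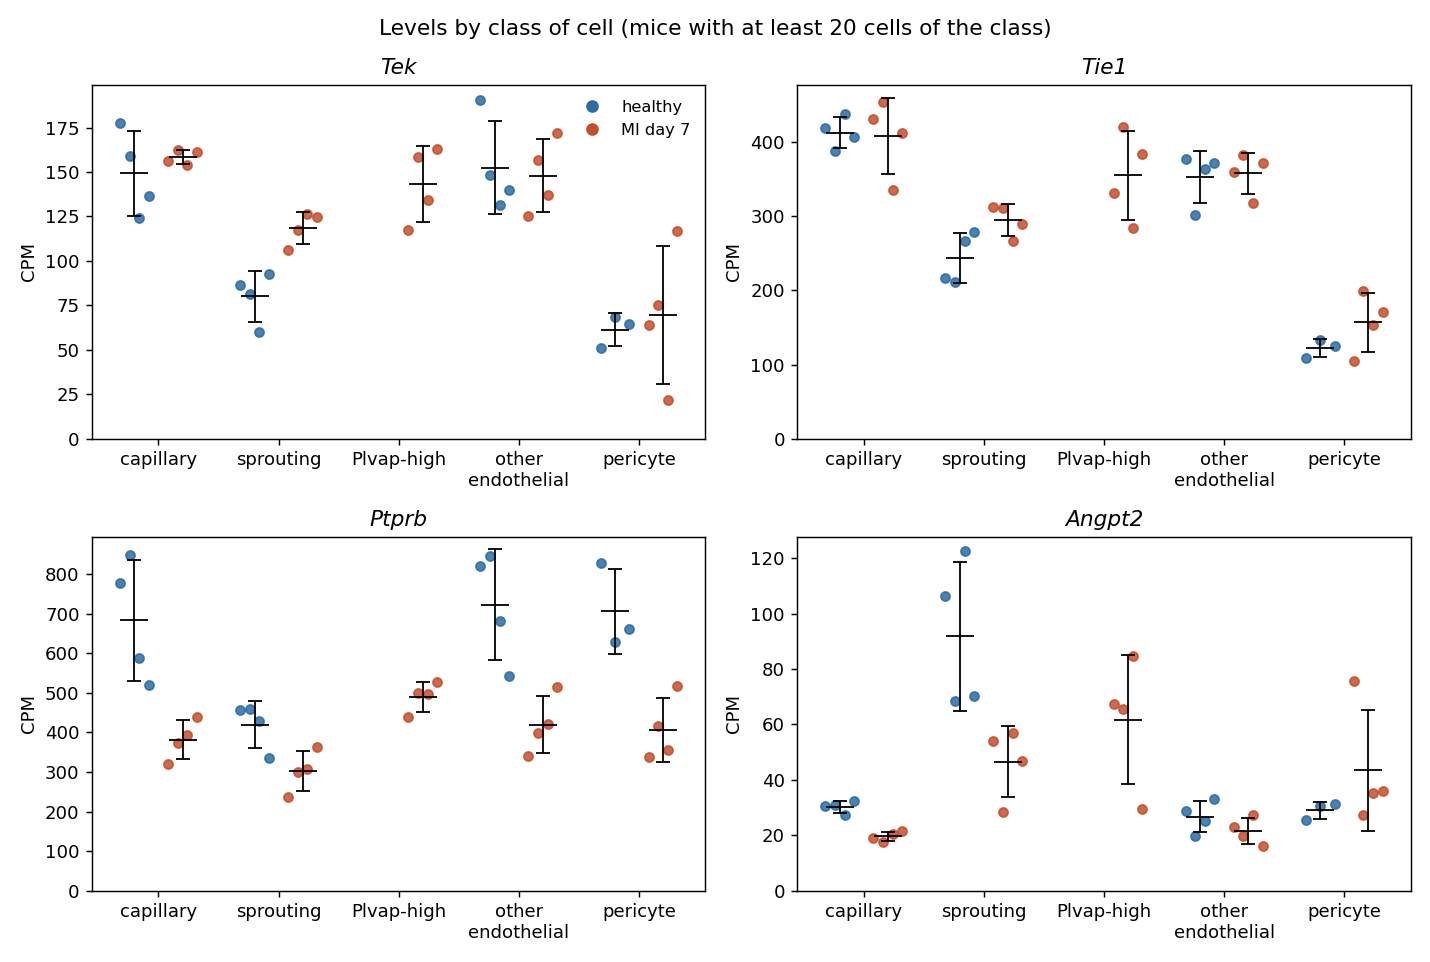
CPM per mouse of Tek, Tie1, Ptprb and Angpt2 in 5 classes of cell, on axes that start at 0 (points: mice with at least 20 cells of the class, bars: mean and SD). Tek, Tie1 and Ptprb sit lower and Angpt2 higher in sprouting than in capillary cells of both groups, and Ptprb is lower in MI than in healthy mice in each class that both groups have.

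Of the 4 members tested over all endothelial cells, Ptprb was the one called between groups. It stood at 794, 783, 655 and 529 CPM in Healthy 227, 228, 239 and 240 and at 332, 391, 418 and 495 CPM in MI 244, 250, 255 and 256. Every healthy mouse was above every MI mouse, with Healthy 240 and MI 256 closest to each other. The mean fell from 690.3 ± 124 to 409 ± 67.5 CPM (SD, n = 4 mice each), a log2 fold change of -0.84 ± 0.15 (edgeR adjusted p = 0.00276, where 18.9% of genes were called lower). Without copied cells the change was -0.94 (adjusted p = 0.00449), and leaving out any 1 mouse gave -0.95 to -0.75 with every call kept. The share of thinned endothelial cells with a Ptprb UMI was 46.1% in healthy mice (39.6 to 51.9% by mouse) and 33.6% in MI mice (29.6 to 38.5%). Before thinning the shares were 65.2% and 75.9%, in the opposite order, with median depths of 1899 and 4130 UMIs.

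Ptprb was also called lower after MI in capillary, other endothelial and sprouting cells and in pericytes, and was not called in haematopoietic cells. In capillary cells it stood at 777, 848, 588 and 521 CPM in healthy mice and at 319, 374, 395 and 439 CPM in MI mice, with no overlap. The log2 fold change was -0.92 ± 0.16 (edgeR adjusted p = 0.00246, -0.97 without copies). Of the 4 members, 2 were called lower in capillary cells, Ptprb and Angpt2, where 8.37% of 8869 genes were. Other endothelial cells gave 543 to 846 CPM against 341 to 516 CPM (-0.87 ± 0.16, edgeR adjusted p = 0.00316, -0.94 without copies), with 17.4% of genes lower. In sprouting cells the levels were 457, 459, 430 and 335 CPM against 238, 299, 308 and 364 CPM, so that MI 256 lay above Healthy 240. The change there was -0.55 ± 0.15 (edgeR adjusted p = 0.0343, -0.73 without copies), with 4.04% of genes lower. That call was lost when Healthy 227, Healthy 228, Healthy 239, MI 244, MI 250 or MI 255 was left out (adjusted p = 0.0681 to 0.122) and under another random draw in the thinning (adjusted p = 0.168) or with library size alone as the scaling (0.0571). The difference between the change in sprouting and that in capillary cells was 0.37 ± 0.095 (edgeR adjusted p = 0.0206), where 3.23% of genes were called. Without the copied cells it was 0.25 and no longer called (adjusted p = 0.206), as also without Healthy 227 (0.0868), Healthy 228 (0.21) or MI 250 (0.0905).

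Ptprb differed between endothelial classes as well. It was lower in sprouting than in capillary cells in 8 of 8 mice, by -0.54 ± 0.047 on the log2 scale (edgeR adjusted p = 1.3e-11, -0.47 without copies). In the MI mice Plvap-high cells had more of it than capillary cells, at 438, 499, 497 and 528 CPM (0.42 ± 0.063, edgeR adjusted p = 1.2e-06, 0.43 without copies). Without mouse as a block the same difference missed the threshold (adjusted p = 0.107), and the paired values were higher in 4 of 4 mice. Plvap-high cells exceeded sprouting cells by 0.78 ± 0.061 (adjusted p = 8.4e-13). The order in MI mice was therefore Plvap-high (490.5 CPM), other endothelial (420 CPM), pericyte (407 CPM), capillary (382 CPM), sprouting (302 CPM) and haematopoietic (187 CPM), with overlapping ranges between neighbours among the first 5. In healthy mice other endothelial cells (723 CPM), pericytes (706 CPM) and capillary cells (683 CPM) overlapped, sprouting cells (420.1 CPM) lay below them, and haematopoietic cells (256 CPM) overlapped with sprouting cells.

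Ptprb in the pericyte class stood near the level of endothelial cells. Pericytes of Healthy 227, 228 and 239 stood at 829, 628 and 662 CPM and those of the MI mice at 338, 417, 355 and 518 CPM, without overlap. The difference from endothelial cells was -0.07 ± 0.085 with an interval of -0.24 to 0.09 (edgeR adjusted p = 0.568), while Tek, Tie1, Pecam1, Cdh5 and Kdr were all lower there. Between MI and healthy pericytes Ptprb fell by 0.84 on the log2 scale (-0.84 ± 0.18, edgeR adjusted p = 0.0245, where 1.08% of 4642 genes were called lower, and -0.98 without copies). The call was lost without Healthy 228 (adjusted p = 0.0717), MI 244 (0.0658), MI 250 (0.0925) or MI 255 (0.0996).

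UMIs of Ptprb also occurred in blood cells. In the haematopoietic class it stood at 299 CPM over all healthy cells and at 188 CPM over all MI cells, against 176 and 285 CPM for Pecam1 and 136 and 261 CPM for Cdh5. In healthy mice it was therefore above Pecam1 among blood cells, although it was below Pecam1 in endothelial cells (684 against 790.5 CPM, pooled). Endothelial cells of Healthy 228 alone went the other way, with Ptprb at 783 and Pecam1 at 709 CPM. The change of Ptprb in haematopoietic cells was -0.52 ± 0.20 (edgeR adjusted p = 0.135), where 8.38% of genes were called. Tie1 rose by 1.20 ± 0.29 (edgeR adjusted p = 0.0238) and Cdh5 by 1.01 ± 0.25 (adjusted p = 0.0256). Not called were Tek (0.27 ± 0.23, edgeR adjusted p = 0.603), Pecam1 (0.79 ± 0.27, adjusted p = 0.0966) and Kdr (0.06 ± 0.20, adjusted p = 0.922). The pericyte marker Rgs5 was called lower (-2.92 ± 0.58, edgeR adjusted p = 0.00832). The 6 endothelial markers summed to 725 to 1248 CPM in healthy and 1370 to 1742 CPM in MI haematopoietic cells, with none at 0, and the part of endothelial RNA in the levels of this class was not tested. Markers of other cells also differed between the groups' endothelial cells. The 14 haematopoietic markers summed to 36.1 to 135 CPM in healthy and 296 to 464 CPM in MI endothelial cells, and the 10 pericyte markers to 104 to 152 and 67.6 to 109 CPM. None of these markers was at 0 in either group, and their part in the fall of Ptprb was not tested.

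**Figure D3:**
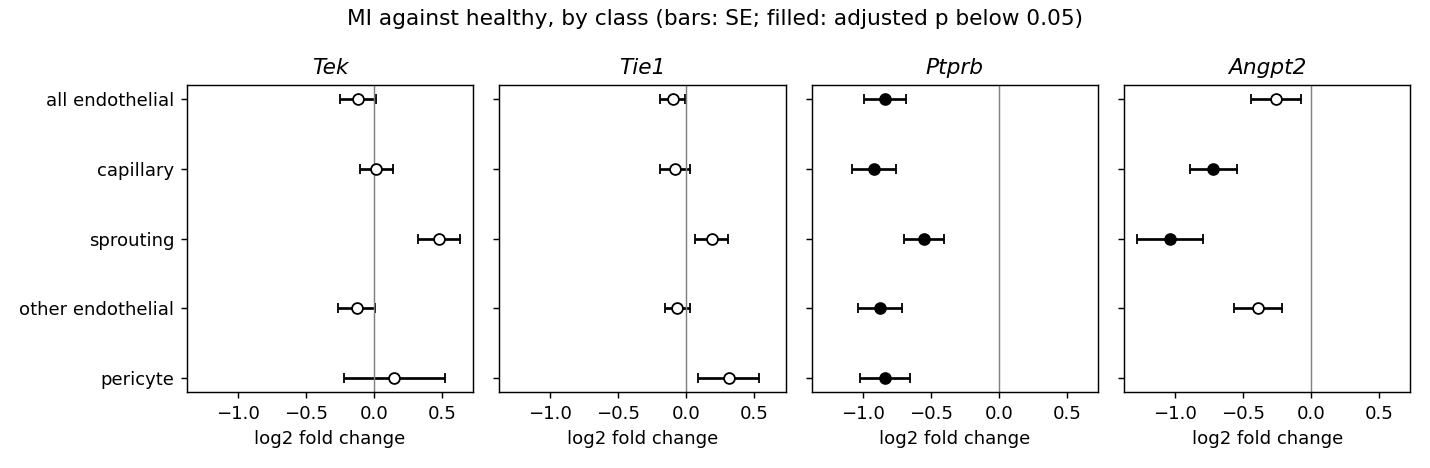
Log2 fold change of MI against healthy mice for 4 members over all endothelial cells and in 4 classes (points: edgeR estimates, bars: SE, filled points: adjusted p below 0.05). Ptprb is filled in all 5 rows with values from -0.92 to -0.55, Angpt2 is filled in capillary and sprouting cells, and Tek and Tie1 are open throughout. Angpt2 was too low to be tested in pericytes.

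Angpt2 was counted in few cells and was higher in the sprouting and Plvap-high classes than in capillary cells. In all, 3441 UMIs were counted in 2314 of 31028 cells, and the largest number in 1 cell was 37, in a sprouting cell of an MI heart. Capillary cells stood at 30.4, 30.8, 27.4 and 32.2 CPM in the healthy mice and at 18.9, 17.6, 20.5 and 21.4 CPM in the MI mice. Sprouting cells stood at 106, 68.4, 122 and 70.1 CPM in the healthy mice and at 54.0, 28.2, 57.0 and 46.9 CPM in the MI mice. Angpt2 was higher in sprouting cells in 8 of 8 mice, 2.55-fold on average (log2 fold change 1.35 ± 0.15, edgeR adjusted p = 3.2e-09, where 14.4% of genes were called higher). The difference was 1.54 ± 0.23 for healthy mice alone, 1.16 ± 0.19 for MI mice alone, and 1.36 without copied cells. Esm1, a secreted proteoglycan that marks tip cells, was also higher in sprouting cells as an average of the groups (1.46 ± 0.35, edgeR adjusted p = 0.0014). It was called in MI mice (1.82 ± 0.37, edgeR adjusted p = 0.000346) but not in healthy mice alone (1.11 ± 0.57, adjusted p = 0.183). Plvap-high cells likewise had more Esm1 than capillary cells (1.58 ± 0.42, edgeR adjusted p = 0.00367). Against sprouting cells they were not called (-0.24 ± 0.31, adjusted p = 0.609).

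Plvap-high cells of the MI hearts had still more Angpt2. They stood at 67.3, 65.6, 84.7 and 29.3 CPM in MI 244, 250, 255 and 256, each above the capillary cells of the same heart. MI 256 was much the lowest and had only 43 Plvap-high cells with 11 Angpt2 UMIs. The log2 fold change against capillary cells was 1.71 ± 0.20 (edgeR adjusted p = 5.1e-09, 1.73 without copies), with 15.9% of genes called higher. Against sprouting cells Angpt2 was higher in 3 of 4 mice (0.55 ± 0.15, edgeR adjusted p = 0.00407). Foxo1 was higher in Plvap-high than in capillary cells (0.71 ± 0.10, adjusted p = 4e-07) and was not called in sprouting cells (0.01 ± 0.091, adjusted p = 0.98). Any part of Foxo1 in the Angpt2 levels of these classes was not tested. In MI hearts Plvap-high cells were 3.64% of all cells and held 14.6% of Angpt2 UMIs, and sprouting cells were 8.16% and held 16.4%. In healthy hearts sprouting cells were 3.07% of cells and held 13.4%. These cells were deeper than other endothelial cells (median 6966 UMIs in Plvap-high and 5001 in sprouting against 4079 in other endothelial cells of MI mice), and of the UMIs of the endothelial classes Plvap-high cells held 5.87% and sprouting cells 10.4% in MI mice. The order in MI mice was Plvap-high (61.7 CPM), sprouting (46.5 CPM), pericyte (43.5 CPM), other endothelial (21.6 CPM), capillary (19.6 CPM) and haematopoietic (9.26 CPM), and each neighbouring pair down to capillary cells overlaps over mice. In healthy mice the sprouting class (91.8 CPM) stood apart from capillary cells (30.2 CPM), pericytes (29.0 CPM) and other endothelial cells (26.7 CPM), which overlap with each other. Pericyte values rest on 8 to 13 UMIs in each MI mouse and 4 to 14 in Healthy 227, 228 and 239, and the difference from endothelial cells was not called (0.35 ± 0.20, interval -0.04 to 0.75, edgeR adjusted p = 0.198).

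Angpt2 was called lower after MI in capillary and sprouting cells, and was not called in other endothelial cells or over all endothelial cells. The classes did not hold like cells in both groups by their own markers. In capillary cells Car4 was lower (log2 fold change -0.75 ± 0.13, edgeR adjusted p = 0.00181) and Apln higher after MI (1.84 ± 0.34, adjusted p = 0.00316). Plvap went from 0 to 2.56 CPM in healthy to 39.8 to 121 CPM in MI capillary cells, and from 0 to 3.94 CPM to 158 to 375 CPM in sprouting cells. The part of these shifts in the changes of the members within classes was not tested. In capillary cells the groups did not overlap and the mean went from 30.2 ± 2.0 to 19.6 ± 1.7 CPM (SD, n = 4 mice each), a log2 fold change of -0.72 ± 0.17 (edgeR adjusted p = 0.0132, -0.71 without copies). The adjusted p was 0.0688 without MI 250. In sprouting cells the groups did not overlap either, and the mean went from 91.8 ± 26.9 to 46.5 ± 12.9 CPM (-1.04 ± 0.24, edgeR adjusted p = 0.016, -1.03 without copies). Without the copied cells the groups overlapped, with Healthy 228 at 55.4 CPM and MI 255 at 57.0 CPM. That call was lost without Healthy 227 (adjusted p = 0.0517) or Healthy 239 (0.0977). In other endothelial cells the change was -0.39 ± 0.18 and was not called (adjusted p = 0.109). It was -0.74 and called (adjusted p = 0.0128) when classes were drawn from all UMIs of each cell. The change did not differ detectably between sprouting and capillary cells (-0.38 ± 0.30, interval -0.97 to 0.21, edgeR adjusted p = 0.634). Over all endothelial cells Angpt2 stood at 32.8, 24.3, 30.7 and 35.3 CPM in healthy and 30.2, 22.1, 36.5 and 20.4 CPM in MI mice. These values overlap, with MI 255 the highest of all 8 (-0.26 ± 0.18, interval -0.61 to 0.10, edgeR adjusted p = 0.290, -0.27 without copies).

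The shares of the classes also differed between the groups. Of the UMIs of the 4 endothelial classes sprouting cells held 5.03% in healthy and 10.4% in MI mice, Plvap-high cells 0.0925 and 5.87%, and capillary cells 19.4 and 7.43%. When each mouse's level was recomputed with the classes at their mean healthy shares, Angpt2 came to 30.7 ± 4.5 CPM in healthy and 22.5 ± 4.0 CPM in MI mice (SD, n = 4), a difference of -8.17 CPM against -3.58 CPM as measured. By a two-sided exact permutation test over the 70 splits of 8 mice, p was 0.0571 at fixed shares and 0.429 as measured. The smallest p this design allows is 0.0286, and neither value passed the threshold. The part of the class shares in the Angpt2 levels was not otherwise tested. Only the shares were held fixed, not the make-up of each class. Other endothelial cells held 75.5% of the UMIs of the 4 classes in healthy and 76.3% in MI mice. Within them mean Plvap went from 10.8 to 285 CPM, Apln from 24.5 to 76.3 CPM and Car4 from 104 to 57.8 CPM. Ptprb went from 700.3 to 406 CPM at fixed shares (exact permutation p = 0.0286, the smallest possible) and from 700.5 to 409 CPM as measured. Tek (148 and 148 CPM, exact p = 1) and Tie1 (359 and 364 CPM, exact p = 0.657) were not separated at fixed shares.

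**Figure D4:**
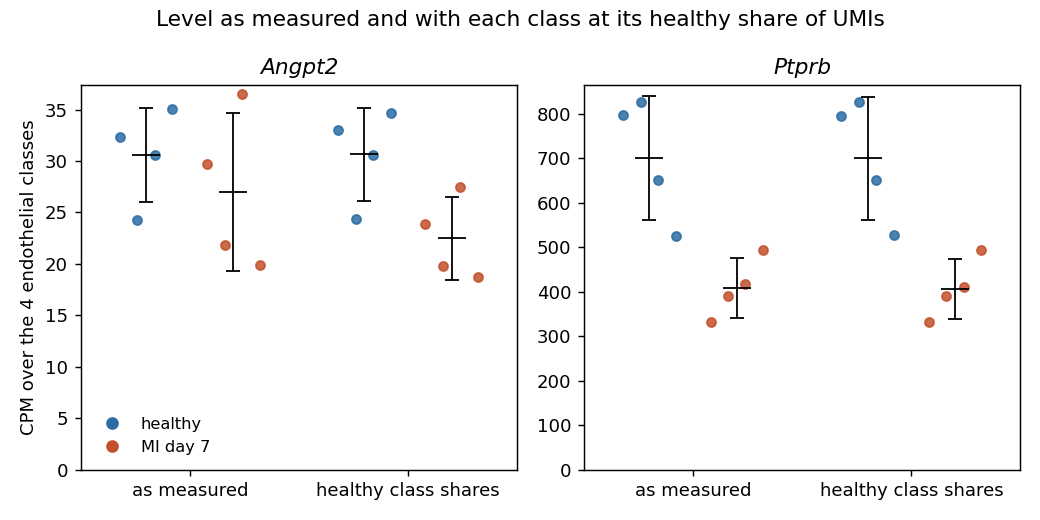
CPM per mouse of Angpt2 (left) and Ptprb (right) over the 4 endothelial classes, as measured and with each class given its mean healthy share of UMIs (points: mice, bars: mean and SD). At healthy shares the MI mean of Angpt2 lies at 22.5 CPM instead of 27.0 CPM, while that of Ptprb stays near 406 CPM.

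Shares of cells gave a similar picture of Angpt2. After thinning to 1000 UMIs, 3.06% of endothelial cells in healthy mice (342 of 11182) and 2.29% in MI mice (367 of 16003) had an Angpt2 UMI, with mouse ranges of 2.42 to 3.63% and 1.93 to 2.78%. Before thinning the shares were 5.63 and 8.99%. Sprouting cells gave 10.6% in healthy and 3.63% in MI mice, and Plvap-high cells of MI mice 5.32%. The haematopoietic class gave 0 of 199 cells in healthy and 0.76% in MI mice. Among all 212 healthy haematopoietic cells there was no Angpt2 UMI, which allows a share of cells with a UMI of up to 1.42% at a median depth of 3856 UMIs. In MI haematopoietic cells, with a median of 7048 UMIs and higher sums of endothelial markers, Angpt2 stood at 6.9 to 12.5 CPM, and the groups were not compared in this class. Thinned endothelial cells with Angpt2 had an Apln UMI more often than the others (12.9 against 3.41% in healthy and 15.0 against 9.09% in MI mice), and a Tek UMI less often (9.06 against 13.4% and 12.0 against 14.3%). These shares are descriptions over cells and were not tested. The small lymphatic class (19 healthy and 27 MI cells) held 187 and 117 CPM of Angpt2, from 11 and 23 UMIs. Of these, 8 were from 5 cells of Healthy 227 and 21 from MI 250 and MI 256, while Healthy 228 and Healthy 239 had none.

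Angpt1 was counted 45 times in 41 of 31028 cells and passed the filter on low counts in no comparison. The fibroblast class gave 10 of these UMIs from 72 cells, at 29.3 CPM in healthy and 16.3 CPM in MI mice. All 3 healthy UMIs were from Healthy 227, without which the healthy value is 0, and the 7 MI UMIs were from MI 244 and MI 250. The platelet class, 33 of whose 34 cells came from healthy mice, gave 8. The pericyte class gave 3 UMIs from 449 cells. Endothelial cells gave 20, of which 17 came from other endothelial cells, 2 from capillary cells and 1 from a cell under 1000 UMIs. Sprouting cells had none in 414 healthy and 1431 MI cells, which allows a share of cells with a UMI of up to 0.725 and 0.21% at median depths of 2676 and 5001 UMIs, and Plvap-high cells had none in 639 MI cells (up to 0.469%, median depth 6966 UMIs). These limits concern captured UMIs, not cells that express the gene. With 3 counts as a floor, the depth of the endothelial sums could have shown 0.105 CPM in healthy and 0.0361 CPM in MI mice. Over the 4 endothelial classes Angpt1 stood at 0.0749 ± 0.0873 CPM in the healthy and 0.207 ± 0.0561 CPM in the MI mice (SD, n = 4), from 2 and 17 UMIs. The difference did not pass the two-sided exact permutation test (p = 0.0857 as measured and 0.0571 at fixed class shares), and 2 of the 4 healthy mice were at 0.

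The rest of the pathway was taken from lists of genes and compared over all endothelial cells. Of 30 genes of Tie2 signalling, 26 were tested, 3 rose, 8 fell and 15 were not called, with a median log2 fold change of -0.15 against -0.02 for all genes. The background in this comparison, for this and the following lists, was 38.2% of genes called and 18.9% called lower, so the counts are read only as descriptions. Itga5, an integrin chain that can associate with TIE2, rose (1.06 ± 0.14, edgeR adjusted p = 0.000553), as did the adaptor Shc1 (0.64 ± 0.088, adjusted p = 0.000757). The adaptor Nck1 fell (-0.71 ± 0.076, adjusted p = 0.000274). Neither Foxo1 (-0.16 ± 0.10, adjusted p = 0.22) nor Nos3, the endothelial nitric oxide synthase (-0.08 ± 0.10, adjusted p = 0.58), was called. Of 15 FOXO target genes 13 were tested, with 3 higher, 3 lower and 7 not called. Gadd45a, a growth arrest gene, rose by 0.38 and Cat, which encodes catalase, by 0.27 on the log2 scale. Txnip, an inhibitor of thioredoxin, and the cell cycle inhibitor Cdkn1b fell by 0.96 and 0.91.

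Relatives of the members moved in both directions. Of 8 other receptor tyrosine phosphatases 7 were tested, with 2 higher, 2 lower and 3 not called. Ptpre rose (0.26 ± 0.079, edgeR adjusted p = 0.0282), and Ptprg (-0.67 ± 0.20, adjusted p = 0.0221) and Ptprm (-0.35 ± 0.11, adjusted p = 0.0298) fell. Of 8 angiopoietin relatives 3 were tested and 2 rose. One was Angptl4, a secreted inhibitor of lipoprotein lipase, with a log2 fold change of 1.66 ± 0.31 (edgeR adjusted p = 0.00278). It also rose in capillary (1.54), sprouting (2.37) and other endothelial cells (1.66). Of 10 junction genes 9 were tested, none rose, 3 fell and 6 were not called. Tjp1, which encodes ZO-1, fell by 0.63 and Jup, which encodes plakoglobin, by 0.50.

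Tip cell genes, which mark the leading cells of vessel sprouts, were all tested (14 of 14). In sprouting against capillary cells 10 were higher and 2 lower, with a median log2 fold change of 0.81 (all genes -0.04, 29.6% of them called). In Plvap-high against capillary cells 5 were higher and 6 lower, with a median of -0.33 (all genes -0.02, 31.6% of them called). In MI against healthy endothelial cells 8 rose and 2 fell, led by the protease receptor Plaur (1.36 ± 0.29, edgeR adjusted p = 0.00498) and the VEGF family ligand Pgf (1.14 ± 0.28, adjusted p = 0.0095). Pdgfb, the gene whose promoter drives the Cre used here, fell (-0.74 ± 0.12, adjusted p = 0.00169), as did the Notch ligand Dll4 (-0.52 ± 0.14, adjusted p = 0.0141). Esm1 did not pass the test in that comparison (0.13 ± 0.23, adjusted p = 0.67). Of 10 general endothelial genes 1 rose (Erg, 0.33 ± 0.087, adjusted p = 0.0146), 4 fell and 5 were not called. Flt1 (-0.70 ± 0.12, adjusted p = 0.00222) was lower alongside Kdr.

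Likeness between genes was described over 48 sums of a class in a mouse and the 6293 genes whose mean reached 20 CPM, by Pearson's r on log2(CPM + 10). Tek and Tie1 followed each other (r = 0.80), while the other pairs of tested members lay between 0.41 for Tie1 and Ptprb and 0.61 for Tek and Ptprb. The genes most like Tie1 were Adgrl4 (r = 0.95), Cdh5 (0.95) and Adcy4 (0.95), and those most like Tek were Ramp2, Plcb1 and Efna1 (each 0.90). Angpt2 lay closest to Serpinh1 (0.86), a collagen chaperone, Nid1 (0.82), a basement membrane protein, and Cnn3 (0.81). Ptprb lay closest to Sod1 (0.86), Arhgef12 (0.82) and Tm4sf1 (0.81). These sums share libraries and depth within each mouse and among its classes, and the values are descriptions with no test.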

How the data were processed

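Libraries were made per mouse with the 10X Genomics 3′ assay. The deposited table holds raw UMI counts per gene and cell, which the authors made with Cell Ranger 2.1.0 on mm10 (Ensembl 84) and filtered by removing cells under 400 genes or over 20% mitochondrial UMIs. Tools named in the submitters' processing notes are Cell Ranger, R 3.5.2 and Seurat 2.3. Every cell was assigned to its mouse by its column name, and 0 columns of per-cell values were left unused. Each mouse is a separate animal and the unit of replication.

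Non-endothelial and lymphatic cells were set apart by the share of their UMIs on marker lists (0.5 to 10% by list, and at least 3 UMIs), and pericytes by their list with at least 2 Rgs5 UMIs. Endothelial cells were thinned to 1000 UMIs (1591 shallower cells, all healthy, have no subclass) and classed by at least 1 Car4, 1 Apln or 3 Plvap UMIs. No doublet caller was run. Unthinned counts were summed per mouse and class (at least 20 cells) and tested with edgeR 4.0.16 in R 4.3.3 (TMM, filterByExpr, quasi-likelihood test), adjusted by Benjamini-Hochberg over all genes tested, with a threshold of 0.05. Class comparisons had mouse as a block. SEs were derived from the F statistic, and 95% intervals are normal. CPM values are UMIs per 1000000 UMIs of the class. Limits on zero counts cover counting error only, while the 95% intervals of fold changes also hold the spread among mice that the fit estimated. The median log2 fold change over all genes lay between -0.06 and 0.03 in these fits. On simulated counts the MI test recovered 94 of 100 genes raised 2-fold and 87 of 100 lowered to 0.5-fold, the sprouting-capillary test 75 and 62 of 100, and the pericyte-endothelial test 59 and 44 of 100.

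The 5 members, the gene lists and the tests were chosen with earlier results of these data known. Named genes were the members, class markers, Pecam1, Cdh5, Kdr, Angptl4, Foxo1, Esm1 and Nos3, and in each list up to 2 called genes with the highest and 2 with the lowest fold change at a mean of at least 20 CPM, except 1 gene that is not reported here. Alternatives were DESeq2 1.42.0, limma-voom 3.58.1, no filter, other cell filters and class limits, no block, Xist as a covariate, no copied cells and leaving out each mouse. Library-size scaling, another thinning draw, leaving out the 5% deepest cells and the haematopoietic comparison were added after the data were seen. Promoter sequences were matched by symbol in RefSeq (2 of 5 members, of which the Tie1 window overlaps an exon in GENCODE and is not printed), and gene positions come from GENCODE M21. Protein sequences and promoters of the other members were not used here.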

Additional observations from a re-analysis of the deposited data

Results flagged for a closer look

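Tie1 over all endothelial cells of Healthy 228 was 311 CPM, far from the other 3 healthy mice (373 to 376 CPM) relative to the range of the group. It was the 1 group flagged among 40 tested for a sample standing apart, a test that chance alone meets in about 1 of 20 groups. Of that library's cells 55.3% were copies of Healthy 239 cells, and without copied cells its Tie1 level was 344 CPM.

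The change of Ptprb between MI and healthy mice differed between the sprouting and the capillary class, by 0.37 on the log2 scale in the interaction test (edgeR adjusted p = 0.0206). The value was 0.25 without copied cells, where it was no longer called (adjusted p = 0.206).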

How the results depend on the processing

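Of 510 recomputed values, 457 kept their direction and their side of the threshold, 28 lost a call, 3 gained one, and 22 turned direction, all 22 of them uncalled values of Tek or Tie1. The fall of Ptprb over all endothelial, capillary and other endothelial cells, and the sprouting-capillary differences of all 4 tested members, kept their calls under every alternative and without each mouse. Leaving out 1 mouse at a time gave these log2 ranges where a direction or call moved: in capillary cells Tek -0.071 to 0.11, Tie1 -0.13 to 0.011 and Angpt2 -0.79 to -0.64, in sprouting cells Ptprb -0.67 to -0.44 and Angpt2 -1.17 to -0.84, and in pericytes Tek -0.25 to 0.43 and Ptprb -0.98 to -0.74. Over all endothelial cells Tek ran from -0.19 to 0.0018, Tie1 in Plvap-high against capillary cells from -0.23 to -0.14, and the interaction from 0.43 to 0.64 for Tek and 0.28 to 0.46 for Ptprb. At fixed class shares the differences ran from -352 to -251 CPM for Ptprb, with an exact p of 0.0286 without any 1 healthy mouse and 0.0571 (not passed) without any 1 MI mouse, from -7.15 to 11.6 CPM for Tek and from -9.87 to 20.4 CPM for Tie1. Without any 1 MI mouse, every healthy mouse still stood above every MI mouse for Ptprb. Another split of the unequal groups then gave at least as large a difference.

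Without copied cells Tek in capillary cells was -0.020, the Ptprb interaction 0.25, and the fixed-share differences -3.99 CPM for Tek and -3.06 CPM for Tie1. Classes drawn without thinning gave -0.041 for Tek in capillary cells, -0.74 for Angpt2 in other endothelial cells and 0.10 for Tek in Plvap-high against capillary cells. Library-size scaling gave 0.018 for Tie1 in other endothelial cells, and 0.56 for Tek (called) and -0.47 for Ptprb (no longer called) in sprouting cells. Another thinning draw gave -0.42 for Ptprb in sprouting cells, also no longer called. Cells thinned to 1000 UMIs gave 0.0084 for Tek over all endothelial cells. Without the 5% deepest cells Tek was 0.055 and Tie1 -0.16 in Plvap-high against capillary cells, and a limit of 2 Plvap UMIs gave -0.847 CPM for Tek at fixed shares. The causes were not tested. No paired analysis was possible because healthy and MI mice share no numbers in the labels. Class comparisons within mice had the mouse as a block, and with no replicate block Plvap-high against capillary cells gave -0.20 for Tie1 and 0.38 for Ptprb, neither called.

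Counts of called genes moved by over 1.5 times in some settings: 2614 instead of 4688 over all endothelial cells with thinned cells, 1122 instead of 542 in sprouting cells without thinning, and 1083 instead of 2990 between sprouting and capillary cells with at least 2 Apln UMIs. Leaving out 1 mouse gave as few as 704 (capillary, without MI 250), 269 (sprouting, without Healthy 228), 31 (pericyte, without Healthy 228) and 195 (interaction, without Healthy 227). MI libraries were deeper than healthy ones, and Angpt1 and pericyte Angpt2 rest on few UMIs.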

Other observations

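Endothelial cells were also split by further marker lists chosen after the data were seen, in cells with at least 1000 UMIs, and levels are given with no test. Cells with at least 2 UMIs of arterial genes such as Dll4, Hey1 and Gja5 (1601 healthy and 1805 MI cells) had more Ptprb than the rest. It stood at 945 ± 181 against 666 ± 144 CPM in healthy mice (SD, n = 4) and at 578 ± 79.2 against 389.7 ± 64.4 CPM in MI mice. In each healthy mouse Tek was higher and Angpt2 lower in arterial than in other cells (means 166 against 146 CPM and 25.3 against 31.4 CPM). In MI mice the differences went both ways among mice, with means of 142 against 146 CPM for Tek and 26.6 against 27.4 CPM for Angpt2. The MI level of Ptprb was below the healthy one in both sets of cells.

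Cells with at least 2 UMIs of cell cycle genes such as Mki67 and Top2a (156 healthy and 1226 MI cells) had little Angpt2. It stood at 10.9 ± 3.8 against 31.1 ± 4.7 CPM in healthy mice and at 13.5 ± 2.0 against 29.1 ± 8.4 CPM in MI mice, lower in cycling cells in 8 of 8 mice. Tek was also lower in them (88.6 ± 21.4 against 150.2 ± 25.4 CPM and 114 ± 4.6 against 149 ± 19.7 CPM). Ptprb was lower in cycling cells in 8 of 8 mice too (395 ± 119 against 709 ± 141 CPM and 290 ± 28.6 against 423 ± 69.2 CPM). The healthy Angpt2 values rest on 1 to 3 UMIs from 32 to 45 cycling cells a mouse, 8 UMIs in all.

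Cells with the venular gene Ackr1 were found almost only after MI (260 cells, against 1 healthy cell). In the 3 MI mice with at least 20 such cells (244, 250 and 255), Angpt2 stood at 61.5, 56.4 and 105 CPM, against 29.7, 21.8 and 32.4 CPM in Ackr1-negative cells of the same mice, and Ptprb at 623, 687 and 560 CPM against 328, 388 and 409 CPM. Interferon-responding cells (at least 2 UMIs of genes such as Ifit3 and Usp18) had Ptprb levels like the rest in each group (708 against 701 CPM in healthy and 412 against 409 CPM in MI mice).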
